A study of Homo sapiens with 4 samples.

Results

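The TRIM family was described in HEL, a human erythroleukaemia cell line with erythroid and megakaryocytic features, after knockdown of AFF4. Members were the rows of the count table named TRIM, a number and at most a final letter, with read-through, antisense and pseudogene names left out. This gave 72 members among 28103 genes. A further 12 names beginning with TRIM stayed outside, among them TRIM6-TRIM34 and TRIM59-IFT80. TRIM16L was kept, as a protein-coding gene in GENCODE v29, although RefSeq lists it as a transcribed pseudogene. The groups were AFF4 knockdown (2 libraries, called knockdown 1 and 2) and Ctrl, whose genotype the labels give as WT (2 libraries, Ctrl 1 and 2). All 4 came from HEL cells grown in RPMI-1640 with FBS, and from poly(A) RNA made into libraries that keep the strand. The labels are silent on how AFF4 was knocked down, for how long, and in how many clones or cultures, and they name 2 RNA extraction kits and 3 sequencer models without tying them to libraries. The spread behind each p-value is therefore that of libraries and could be technical. AFF4 holds together the super elongation complex, which frees paused RNA polymerase II.

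TRIM proteins share an amino-terminal RING domain, B-boxes and a coiled coil. The RING recruits an E2 enzyme and makes most of them ubiquitin ligases, the coiled coil pairs them into dimers, and the carboxy-terminal domain, often a PRY-SPRY fold, chooses the target. The family is best known for restriction of retroviruses and for tuning the sensing of foreign nucleic acid, and many members are induced by interferon. Others repress transcription in the nucleus, bind microtubules, or act in red cell maturation, which makes the family of interest in an erythroid line.

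Sequences are shown for the promoters of the called member, TRIM6, of its neighbour TRIM5, and of TRIM7, the member with the largest negative fold change. They are RefSeq windows on GRCh38.p14, from 250 bases before to 50 bases after an annotated start, written 5′ to 3′ on the gene's strand. Of the 46 members tested below, 34 had a window. Capitals mark matches, on either strand, to any of 7 motifs: the core of the interferon-stimulated response element (the word GAAA repeated after a spacer of 2 bases), the gamma-activated site (TTCNNNGAA), the site of GATA factors (spelled AGATAA), the site of the AP-1 factors (spelled TGACTCA), the CCAAT box, the GC box (spelled GGGCGG) and the box of the TATA-binding protein (spelled TATAAA).
TRIM6, chr11:5596387-5596686, plus strand: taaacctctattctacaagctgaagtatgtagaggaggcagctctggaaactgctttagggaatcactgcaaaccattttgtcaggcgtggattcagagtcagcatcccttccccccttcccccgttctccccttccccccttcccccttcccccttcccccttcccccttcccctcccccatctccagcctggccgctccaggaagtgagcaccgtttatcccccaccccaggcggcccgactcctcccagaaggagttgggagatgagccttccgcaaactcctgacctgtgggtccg
TRIM5, chr11:5685025-5685324, minus strand: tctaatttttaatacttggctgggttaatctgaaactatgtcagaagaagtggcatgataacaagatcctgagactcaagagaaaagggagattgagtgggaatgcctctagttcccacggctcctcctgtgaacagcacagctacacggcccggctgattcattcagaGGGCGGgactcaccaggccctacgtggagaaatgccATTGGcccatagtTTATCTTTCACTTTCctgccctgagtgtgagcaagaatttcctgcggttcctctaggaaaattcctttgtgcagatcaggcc
TRIM7, chr5:181205147-181205446, minus strand: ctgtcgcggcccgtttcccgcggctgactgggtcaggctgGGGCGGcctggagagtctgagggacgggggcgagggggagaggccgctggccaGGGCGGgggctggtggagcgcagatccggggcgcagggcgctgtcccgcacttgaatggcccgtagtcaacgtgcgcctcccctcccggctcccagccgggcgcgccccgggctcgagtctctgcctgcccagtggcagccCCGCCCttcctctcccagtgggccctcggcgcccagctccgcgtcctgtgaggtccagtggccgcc

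The 3 windows differ in these letters. The TRIM6 window held none of the motifs and carries a long run of cytosine and thymine. The TRIM5 window held a GC box, a CCAAT box, and a GATA match that runs into a match to the interferon-stimulated response element, on the opposite strand just before the start. The TRIM7 window held 3 GC boxes, and RefSeq gives TRIM7 other starts whose windows are not printed. The 34 members had 50 windows in all, since a gene can have several starts. Of these windows 7 (14%) held the response element core, against 3.57% of all 35116 windows of this length. The GATA site was in 4 (8%), against 10.3% of all windows, the CCAAT box in 19 (38.0%), against 34.6%, and the GC box in 31 (62.0%), against 45.0%. The response element core was in windows of TRIM2, TRIM5, TRIM14, TRIM16, TRIM21, TRIM26 and TRIM44. A match is a description of letters and not a binding site.

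Before the members, the targeted gene was checked. AFF4 was at 18.7 and 18.9 CPM in knockdown 1 and 2, against 88.3 and 69.2 CPM in Ctrl 1 and 2, where CPM is the count scaled to a common, TMM-corrected library size. Knockdown libraries held less AFF4 by a log2 fold change of -2.07 ± 0.19 (SE), which passed edgeR's quasi-likelihood test (adjusted p = 0.0268), though not with a filter of at least 5 CPM in 2 libraries (adjusted p = 0.0552). The summed counts of a library ran between 14903878 and 19129008. HEL markers were present: 20 of 21 erythroid and megakaryocytic genes passed the count filter, their summed level was 12198.1 and 12209.7 CPM in the knockdown libraries, against 15508.4 and 18428 CPM in the Ctrl libraries, and HBG1 and ITGB3 fell (edgeR adjusted p = 0.0394 and 0.0415), where 0.295% of all tested genes were called lower. The fetal globins HBG1 (2341.0 and 2242.4 CPM in the knockdown libraries, against 3932.2 and 4397.1 CPM in the Ctrl libraries) and HBG2 made up much of that sum. Of the 20 tested markers 8 were positive and 12 negative, where 48.8% of all tested genes were positive. The groups overlapped for 11, and without overlap 4 were higher and 5 lower, near the shares over all tested genes of 23.1% and 23.0%. EPOR (0.76), GYPB (0.58) and TFRC (0.39) were among the positive log2 fold changes, and the median was -0.15. The part of these markers in the TRIM values was not tested, and in bulk RNA fewer cells with a transcript and less of it per cell cannot be told apart. Of the T cell list, 3 of 5 genes were at 0 and 0 passed the filter, and the B cell, myeloid and stromal lists summed to at most 72.2 CPM in any library. The Ctrl libraries stood further apart than the knockdown libraries. Over the tested members the median absolute log2 ratio was 0.07 between the knockdown libraries, against 0.27 between the Ctrl libraries. Over all 13572 tested genes these medians were 0.09 and 0.35. Counts within a group differed by more than sampling noise in both groups, with a chi-square per gene of 2.49 for the knockdown pair and 43.5 for the Ctrl pair.

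HEL cells used a part of the family. Of the 72 members, 55 had at least 1 read, 46 passed the filter on low counts, and 17 were at 0 in all 4 libraries. A count of 0 allows up to 3 reads, or between 0.157 and 0.201 CPM depending on the library, for counting error only. The silent members were TRIM31, TRIM42, TRIM43, TRIM43B, TRIM48, TRIM49, TRIM49B, TRIM49C, TRIM51, TRIM55, TRIM60, TRIM64, TRIM64B, TRIM64C, TRIM72, TRIM73 and TRIM77. TRIM55 and TRIM72 are known from striated muscle. Several of the rest are recent primate duplicates of near-identical sequence, for which the handling of multi-mapped reads, on which the sources are silent, can also set a count. The 9 members with reads but under the filter were TRIM34, TRIM40, TRIM50, TRIM54, TRIM59, TRIM61, TRIM67, TRIM69 and TRIM74, with at most 22 reads summed over the libraries.

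TRIM28 dominated the family's reads. TRIM28, also called KAP1, is the co-repressor that KRAB zinc-finger proteins bring to retroelements. It made up 34.4% and 36.0% of all member counts in knockdown 1 and 2 (Wilson 95% intervals 33.9% to 34.9% and 35.5% to 36.5%), against 29.9% and 42.4% in Ctrl 1 and 2 (29.5% to 30.4% and 41.9% to 42.9%). The Ctrl libraries thus bracket both knockdown libraries. The intervals cover counting error only, and PCR reads are not independent molecules. The members together had 2198.7 and 2273.4 CPM in the knockdown libraries, against 1981.8 and 2390.0 CPM in the Ctrl libraries. Without TRIM28 the sum was 1442.2 and 1455.1 CPM in the knockdown libraries, against 1388.6 and 1376.6 CPM in the Ctrl libraries.

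To compare levels between genes, CPM was divided by the length of annotated exon. That length merges the exons of all isoforms, so genes with long isoforms that are not used can be understated. TRIM28 led with a mean of 197 CPM per kilobase over the 4 libraries. Its lowest library lay above the highest of any other tested member. TRIM58 (21.0), TRIM65 (19.8), TRIM44 (18.9) and TRIM21 (18.3) followed in CPM per kilobase, and within this group each neighbouring pair had overlapping libraries. TRIM58 is the ligase that, in mouse erythroblasts, degrades dynein before enucleation. TRIM21 is a cytosolic antibody receptor, and TRIM44 lacks a RING domain. TRIM21 stood clear of TRIM37 (12.7), which begins a further run of overlapping members, TRIM25 (11.4), TRIM5 (10.9), TRIM24 (10.6), TRIM4 (10.6) and TRIM33 (9.24), again in CPM per kilobase. At the low end were TRIM39, TRIM47, TRIM29 and TRIM2, the last at 0.061 CPM per kilobase.

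**Figure D1:**
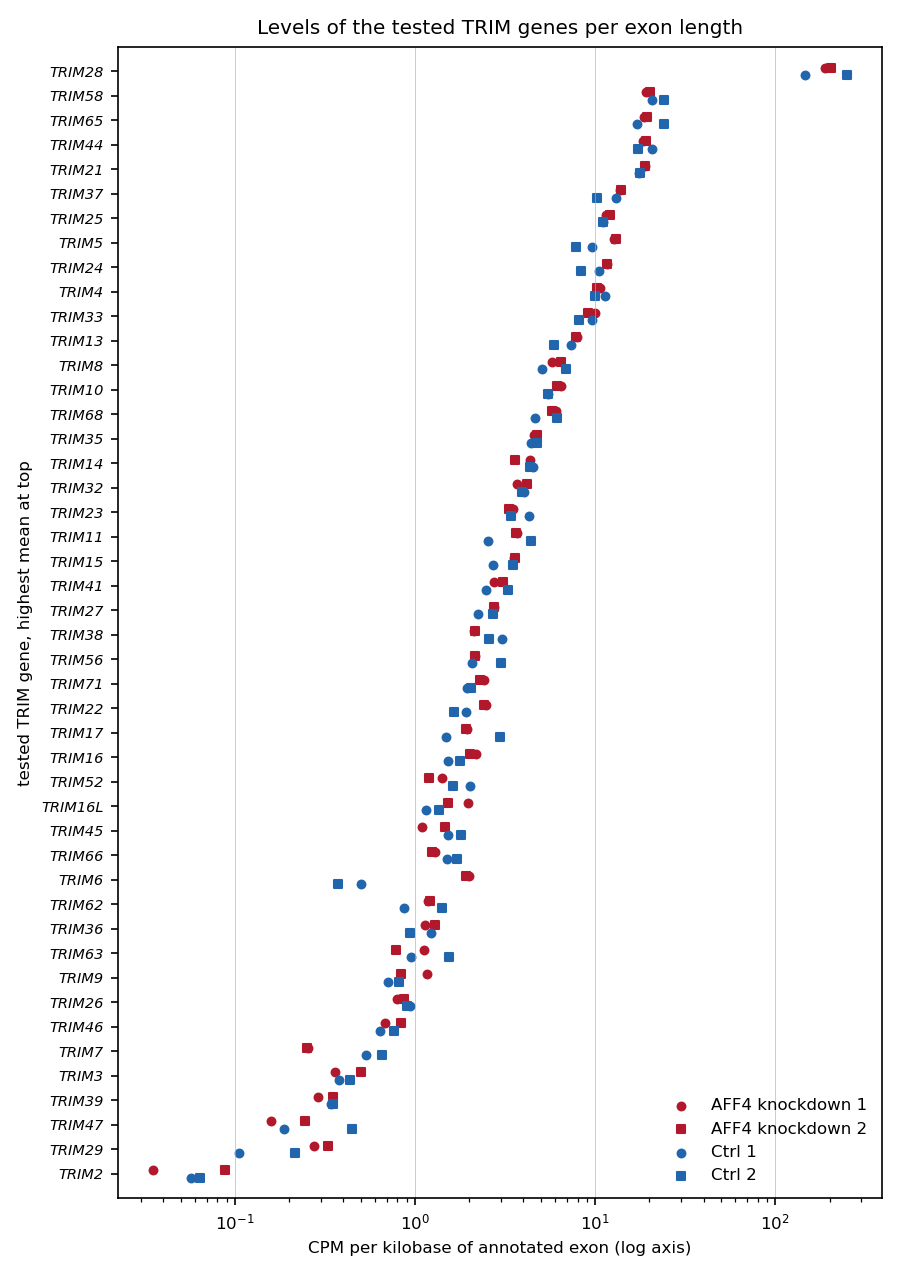
Level of each of the 46 tested TRIM genes in CPM per kilobase of GENCODE v29 exon (log axis), with 1 point per library, knockdown in red and Ctrl in blue, ordered by mean. TRIM28 stands apart at the top with a mean of 197, and TRIM2 is lowest with 0.061.

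In the comparison of AFF4 knockdown with Ctrl, 1 of the 46 tested members rose, TRIM6, and 0 fell (edgeR adjusted p under 0.05). The background is 0.346% of all tested genes higher, 0.295% lower and 0.641% in either direction. The median log2 fold change was 0.06 over the tested members and -0.01 over all tested genes, and 27 members were positive and 19 negative, where 48.8% of all tested genes were positive. At an unadjusted p under 0.05, 3 members were higher (TRIM6, TRIM5 and TRIM29), where the background is 6.79%, and 1 was lower (TRIM7), where it is 8.19%. Together these are 8.70% of the members tested, against 15.0% of all genes. DESeq2, with a background of 3.02% in either direction, and limma-voom, with 0.678%, each called 1 member higher and 0 lower. The groups did not overlap for 24 members, 16 with the knockdown libraries higher and 8 with them lower. That is 52.2% of members, against a background of 46.1% of all tested genes, with 23.1% higher and 23.0% lower. By direction, the members' share was above the background for higher and below it for lower. This difference was not tested, and the members share the same 4 libraries. The fold changes were small for most members: 31 of 46 lay within 0.25 of no change on the log2 scale, and 2 exceeded 1 in size.

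**Figure D2:**
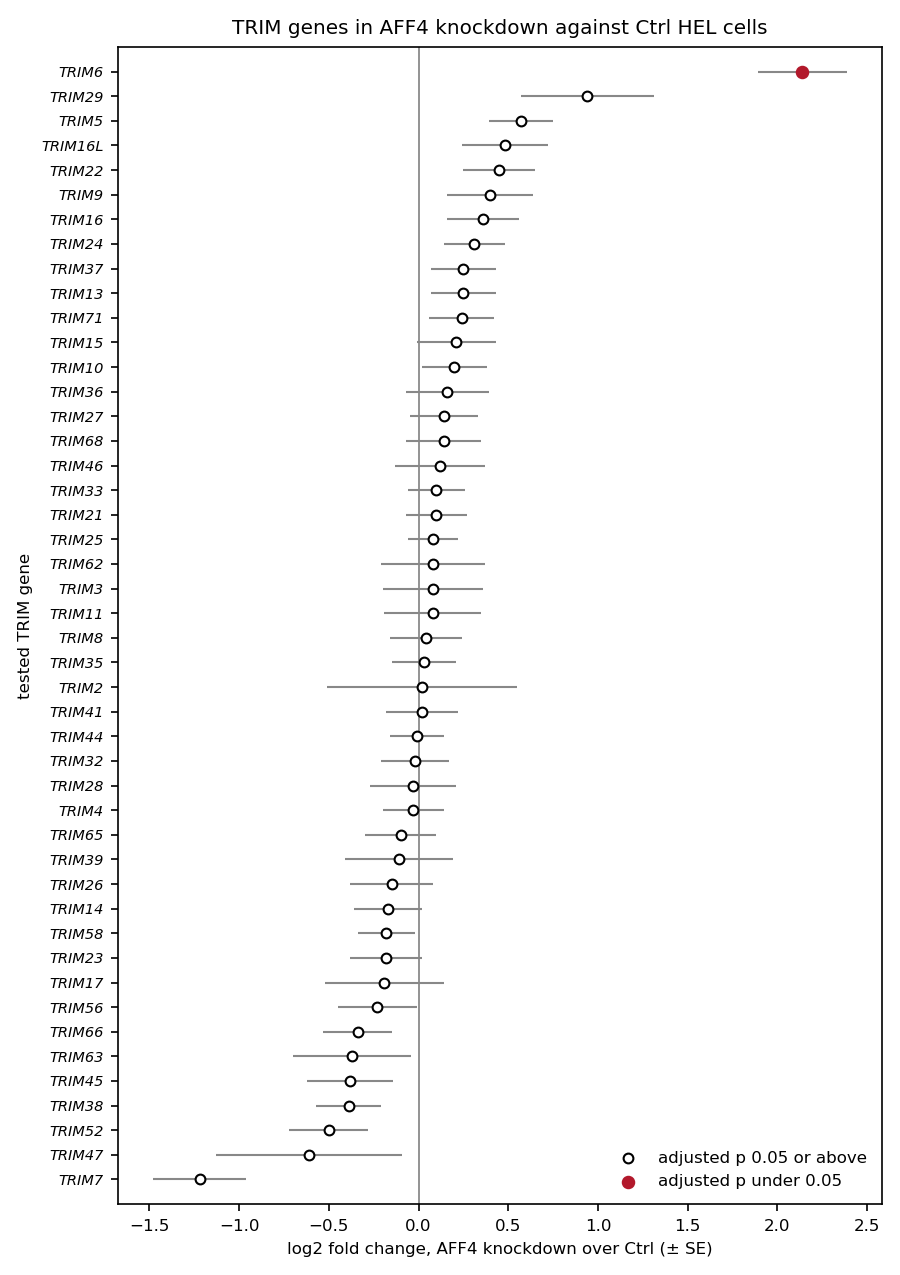
Log2 fold change, AFF4 knockdown over Ctrl, with its SE, for each of the 46 tested TRIM genes, ordered by value; the filled point marks the gene with an edgeR adjusted p under 0.05. TRIM6 lies at 2.14 and TRIM7 at -1.22, and the rest fall between -0.61 and 0.94.

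The TRIM5 group comprises the paralogs TRIM6, TRIM34, TRIM5 and TRIM22, which adjoin each other on the short arm of chromosome 11. Their annotated spans cover 342.5 kb, but that includes a long TRIM5 span, 5663557 to 5938619, which holds all of TRIM22 and several olfactory receptor genes. TRIM6, which with the E2 enzyme UBE2K makes free ubiquitin chains that activate the kinase IKK-epsilon in interferon signalling, spans 5596109 to 5612958 on the plus strand (GENCODE v29, GRCh38). Its counts were 142 and 127 in knockdown 1 and 2, against 37 and 22 in Ctrl 1 and 2. In CPM these were 7.85 and 7.54 in the knockdown libraries, against 1.98 and 1.47 in the Ctrl libraries. Both knockdown libraries were well above both Ctrl libraries. TRIM6 rose 4.40-fold, a log2 fold change of 2.14 ± 0.25 (SE; adjusted p = 0.0342 by edgeR), with means of 7.70 ± 0.216 CPM in knockdown and 1.73 ± 0.359 CPM in Ctrl (SD, n = 2 each). The value stayed between 1.95 and 2.38 over 14 alternatives and TRIM6 was called in 13 of them, while the filter of at least 5 CPM in 2 libraries gave an adjusted p of 0.0573.

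TRIM5, whose long isoform binds incoming retroviral capsids, was far more abundant. It was at 61.6 and 63.1 CPM in knockdown 1 and 2, against 46.3 and 37.8 CPM in Ctrl 1 and 2. The groups did not overlap, and the log2 fold change of 0.57 ± 0.18 (SE) did not pass the edgeR test (adjusted p = 0.198). TRIM22, an interferon-induced antiviral member, had 14.9 and 14.6 CPM in the knockdown libraries, against 11.6 and 9.91 CPM in the Ctrl libraries. Its knockdown libraries were again the higher ones, with a log2 fold change of 0.45 ± 0.20 (SE; adjusted p = 0.349 by edgeR). TRIM34 had 1 read in each knockdown library, against 0 and 1 in Ctrl 1 and 2, and was not tested. Summed over the group, the level was 84.35 and 85.23 CPM in the knockdown libraries, against 59.86 and 49.27 CPM in the Ctrl libraries.

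Counting limits apply to this group. In GENCODE v29, 83.0% of TRIM34's exon bases and 29.3% of TRIM6's are shared with the read-through gene TRIM6-TRIM34 on the same strand, and that row was at 0 in all 4 libraries. No source states how reads in shared exons were assigned, so the levels of TRIM34 and TRIM6 could both be understated. In the table, 27 rows had an annotated span that reaches within 250 kb of TRIM6. They included 17 olfactory receptor genes, 16 rows at 0 and 5 tested genes, of which TRIM6 alone was called. The others were TRIM5, TRIM22 and, on the far side of TRIM6, the globins HBG2 and HBE1. The HBG2 and HBE1 spans, 5253190 to 5505605 and 5268345 to 5505652, hold only 869 and 961 exon bases. Where in the spans these exons lie was not examined, so the globin genes may lie further from TRIM6. HBG2 had 4137.9 and 4044.1 CPM in the knockdown libraries, against 6109.2 and 7002.7 CPM in the Ctrl libraries, with an edgeR adjusted p of 0.0641. HBE1 was at 978 and 998 CPM, against 1274 and 1476.6 CPM, with an edgeR adjusted p of 0.152. In both globins the knockdown libraries were the lower ones, opposite to TRIM6, TRIM5 and TRIM22.

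A further 4 members lie in band 11p15 outside the group. TRIM21 had a log2 fold change of 0.10, TRIM68, a co-regulator of the androgen receptor, 0.14, the neuronal ligase TRIM3 0.08 and TRIM66 -0.34. None of these 4 passed the edgeR test, where 0.641% of all tested genes did. In edgeR 0 had an unadjusted p under 0.05, where 15.0% of all tested genes did. Without Ctrl 1 the TRIM68 and TRIM3 values became -0.05 and -0.02. In all, 25 members sit within 100 kb of another member, in 8 clusters.

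**Figure D3:**
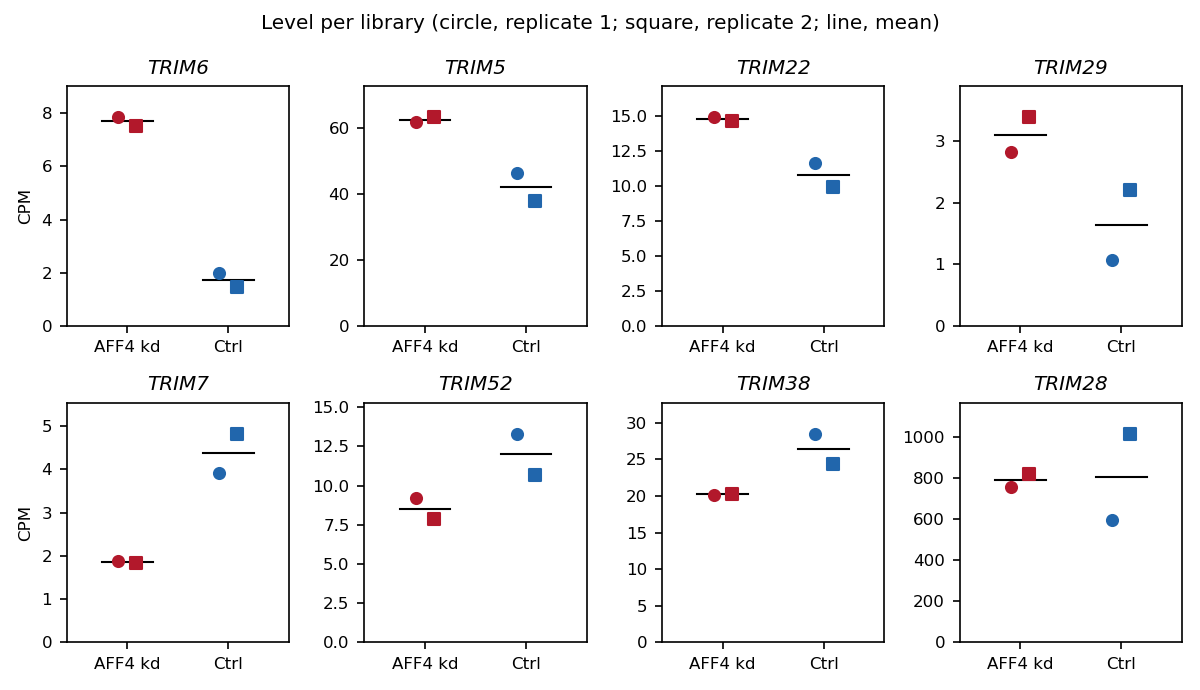
CPM in each library for 8 TRIM genes, AFF4 knockdown left of Ctrl, with circles for replicate 1, squares for replicate 2 and a line at the mean of 2 libraries. TRIM6 separates widely (7.85 and 7.54 against 1.98 and 1.47 CPM), whereas the Ctrl libraries of TRIM28 (593 and 1013.4 CPM) lie on either side of the knockdown libraries.

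TRIM7 had the largest negative fold change. It is a PRY-SPRY ligase first found as a partner of glycogenin, the primer of glycogen synthesis, and lies on chromosome 5, 181193924 to 181205293, minus strand. Counts of TRIM7 were 34 and 31 in the knockdown libraries, against 73 and 72 in the Ctrl libraries. In CPM these were 1.88 and 1.84, against 3.91 and 4.82. The groups did not overlap, and knockdown was 2.33-fold lower, a log2 fold change of -1.22 ± 0.26 (SE). This did not pass the edgeR test (adjusted p = 0.0896), and adjusted p ran from 3.20e-06 to 0.848 over 13 alternatives, 6 of which called it lower. The filter of at least 5 CPM in 2 libraries removed it.

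TRIM7 shares a 67.2 kb stretch with TRIM41 and TRIM52, neighbours picked out after their values were seen. TRIM52, a short member with an expanded RING loop, was at 9.23 and 7.84 CPM in the knockdown libraries, against 13.3 and 10.7 CPM in the Ctrl libraries. These did not overlap, with a log2 fold change of -0.50 ± 0.22 (SE; adjusted p = 0.349 by edgeR). TRIM41, which lies between them, had 35.3 and 39.5 CPM in the knockdown libraries, against 31.6 and 42.2 CPM in the Ctrl libraries, and the groups overlapped. In GENCODE v29, 28.5% of the exon bases of TRIM52 face an exon of CTC-338M12.4 on the other strand. No source states whether counting used the strand. The row TRIM52-AS1, which had a log2 fold change of 0.07, is not that gene. Its span starts at 181261212, past the end of TRIM52 at 181261139.

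Nuclear co-repressors of the TIF1 group had 0 of 4 called, where 0.641% of all tested genes were called, and a median of 0.04. TRIM28 was at 757 and 818 CPM in knockdown 1 and 2, against 593 and 1013.4 CPM in Ctrl 1 and 2. The log2 fold change of -0.03 ± 0.24 (SE; adjusted p = 0.974 by edgeR) rests on Ctrl libraries that differ by 0.77 on the log2 scale. Set against Ctrl 2 alone it was -0.36, and against Ctrl 1 alone 0.41, both called by edgeR (adjusted p = 1.08e-07 and 1.87e-09). These data therefore give no direction for TRIM28. TRIM24, a bromodomain reader of histone tails and co-regulator of nuclear receptors, had 108 CPM in each knockdown library, against 96.9 and 77.4 CPM in the Ctrl libraries. Both Ctrl libraries were lower, and the log2 fold change was 0.31 ± 0.17 (SE; adjusted p = 0.448 by edgeR). TRIM33, the TIF1-gamma that zebrafish need for red cell formation, overlapped between groups, with a log2 fold change of 0.10. TRIM66 had 15.2 and 14.6 CPM in the knockdown libraries, against 17.6 and 20.2 CPM in the Ctrl libraries. It was lower in both knockdown libraries (log2 fold change -0.34 ± 0.19, SE; edgeR adjusted p = 0.469).

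Among partners of the TRIM28 silencing complex, 0 of 16 tested genes passed, near the 0.641% of all tested genes, and the median was 0.04. CBX5, which encodes the heterochromatin protein HP1-alpha, had the smallest p of this list. It was at 188 and 190 CPM in the knockdown libraries, against 388 and 306 CPM in the Ctrl libraries, with a log2 fold change of -0.87 ± 0.16 (SE; adjusted p = 0.0661 by edgeR). MAGEA6, a cancer-testis protein that binds TRIM28, had the largest positive log2 fold change of the list, 0.47.

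The erythroid members were both expressed and did not pass the test. TRIM58 had 62.0 and 64.8 CPM in knockdown 1 and 2, against 66.4 and 77.4 CPM in Ctrl 1 and 2, a log2 fold change of -0.18 ± 0.16 (SE; adjusted p = 0.695 by edgeR). TRIM10, needed for terminal maturation of mouse erythroid cells, had 22.9 and 21.8 CPM in the knockdown libraries, against 19.5 and 19.3 CPM in the Ctrl libraries, a log2 fold change of 0.20 ± 0.18 (SE; adjusted p = 0.687 by edgeR). Neither gene overlapped between groups, and they lay on opposite sides of no change. TRIM10 belongs to the members in and near the MHC region of chromosome 6. Of these, 0 of 6 tested passed, where 0.641% of all tested genes did, and the median was 0.01. TRIM38, which dampens Toll-like receptor signalling, had the lowest fold change there. It had 20.2 and 20.3 CPM in the knockdown libraries, against 28.5 and 24.4 CPM in the Ctrl libraries. The knockdown libraries were both lower, with a log2 fold change of -0.39 ± 0.18 (SE; adjusted p = 0.392 by edgeR).

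Members that act in the sensing of foreign RNA and DNA were set beside the background of 0.641% of all tested genes called. Of 11 listed, 10 were tested and 0 passed in either direction, near that share. By sign 2 were positive and 8 negative, where 48.8% of all tested genes were positive. The median was -0.13, against -0.01 over all tested genes. TRIM25, which ubiquitinates the RNA sensor RIG-I, was at 109 and 115 CPM in the knockdown libraries, against 106 CPM in each Ctrl library. Its log2 fold change was 0.08 ± 0.14 (SE; adjusted p = 0.869 by edgeR). TRIM65, the ligase of the sensor MDA5, had 73.9 and 77.3 CPM in the knockdown libraries, against 67.2 and 95.1 CPM in the Ctrl libraries, which lay on either side of them. TRIM56, which acts on the DNA sensing pathway of cGAS and STING, had 24.0 and 24.1 CPM in the knockdown libraries, against 23.1 and 33.5 CPM in the Ctrl libraries. Here the groups overlapped through Ctrl 1. TRIM14, a RING-less adaptor at the mitochondrial protein MAVS, had a log2 fold change of -0.17, the ARF-domain member TRIM23 -0.18 and TRIM4 -0.03.

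The proteins these ligases work with were described in the same way. Of 23 tested partners in RIG-I, cGAS and NF-kB signalling, 0 passed edgeR, near the 0.641% of all tested genes. By sign 9 were positive and 14 negative, and the median was -0.09. The edgeR unadjusted p was under 0.05 for DHX58, a regulator of RIG-I (log2 fold change -0.82 ± 0.25, SE). So it was for the interferon signal transducer IRF9 (0.54 ± 0.18, SE), where 15.0% of all tested genes had such a p. Of 26 tested interferon-stimulated genes 0 rose and 1 fell, against 0.346% higher and 0.295% lower among all tested genes. By sign 6 were positive and 20 negative, where 48.8% of all tested genes were positive. The median was -0.17, against -0.01 over all tested genes. The groups overlapped for 11, and without overlap 5 were higher and 10 lower. Over all tested genes 23.1% were higher and 23.0% lower without overlap. The gene that fell was OAS3, a sensor that makes oligoadenylates. It was at 22.4 and 22.6 CPM in the knockdown libraries, against 53.8 and 63.6 CPM in the Ctrl libraries (log2 fold change -1.38 ± 0.18, SE; edgeR adjusted p = 0.0379). RSAD2, the antiviral enzyme viperin, lay on the other side, at 34.7 and 33.6 CPM in the knockdown libraries, against 19.7 and 17.1 CPM in the Ctrl libraries (edgeR adjusted p = 0.0857).

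The ubiquitin machinery and the relatives of the family outside its naming also held no called gene, where 0.641% of all tested genes were called. Of 21 tested E2, E1 and ubiquitin genes 0 passed, with a median of 0.02 and a range from -0.45 to 0.47. The ISG15-conjugating enzyme UBE2L6 was at 80.5 and 83.7 CPM in the knockdown libraries, against 101 and 111 CPM in the Ctrl libraries, with a log2 fold change of -0.37 ± 0.15 (SE; adjusted p = 0.308 by edgeR). Of the 12 listed relatives, 5 were tested and 0 passed. MID1, the microtubule-bound ligase mutated in Opitz syndrome, had 4.20 and 3.62 CPM in the knockdown libraries, against 6.37 and 5.15 CPM in the Ctrl libraries (log2 fold change -0.56 ± 0.24, SE; edgeR adjusted p = 0.328). PML, the organizer of nuclear bodies, was at 66.3 and 70.4 CPM in the knockdown libraries, inside the Ctrl values of 54.2 and 82.7 CPM.

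Members without a RING domain, which lack the usual ligase module, included the second largest positive fold change. TRIM29, an epithelial and DNA-damage response protein, had 51 and 57 counts in the knockdown libraries, against 20 and 33 in the Ctrl libraries. That is 2.82 and 3.39 CPM, against 1.07 and 2.21 CPM, without overlap. The log2 fold change was 0.94 ± 0.37 (SE; adjusted p = 0.295 by edgeR), and it ran from 0.49 without Ctrl 1 to 1.52 without Ctrl 2. TRIM16, which takes part in the autophagy of damaged lysosomes, and its partial copy TRIM16L lay higher in both knockdown libraries. TRIM16 had 12.3 and 11.5 CPM in the knockdown libraries, against 8.57 and 9.97 CPM in the Ctrl libraries, and a log2 fold change of 0.36. TRIM16L had 8.57 and 6.59 CPM, against 4.98 and 5.89 CPM, and a log2 fold change of 0.48. Reads can be split between these copies, so neither value is certain, and without TRIM16L the family median is 0.04. TRIM44 had 242 and 251 CPM in the knockdown libraries, inside the Ctrl values of 272 and 224 CPM, and its log2 fold change of -0.01 turned positive with upper quartile or library-size scaling.

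The NHL-repeat members, a group that binds RNA and protein through a propeller domain, had 0 of 4 called and a median of 0.05. Over all tested genes 0.641% were called, which is also the background for the next group. TRIM71, an oncofetal regulator of stem cell RNA, was at 20.9 and 20.0 CPM in the knockdown libraries, against 17.0 and 17.8 CPM in the Ctrl libraries, with a log2 fold change of 0.24 ± 0.18 (SE; adjusted p = 0.625 by edgeR). Of 7 microtubule-binding members 4 were tested and 0 passed. Among them TRIM9, a brain ligase of axon guidance, had 10.4 and 7.48 CPM in the knockdown libraries, against 6.37 and 7.30 CPM in the Ctrl libraries. TRIM63, the muscle atrophy ligase MuRF1, was at 2.87 and 2.02 CPM, against 2.46 and 3.95 CPM, and overlapped. TRIM13, anchored in the endoplasmic reticulum membrane, had 64.2 and 63.1 CPM in the knockdown libraries, against 59.5 and 47.7 CPM in the Ctrl libraries. TRIM37, which limits centrosome assembly, had 75.5 and 76.0 CPM, against 71.5 and 56.0 CPM. Both were higher in each knockdown library, each with a log2 fold change of 0.25 ± 0.18 (SE), and neither passed edgeR. TRIM59, the other membrane member, had 0 reads in each knockdown library, against 1 in each Ctrl library. Its read-through row TRIM59-IFT80 held 17 and 8, against 13 and 10. In GENCODE v29, 14.5% of TRIM59's exon bases are shared with AC079594.2 on the same strand, and 19.8% face SMC4. How reads in shared exons were assigned is not stated, so TRIM59's level could be understated.

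Of the members not yet named with a value, TRIM47 and TRIM45 were among the lowest. TRIM47 had 9 and 13 counts in the knockdown libraries, against 11 and 21 in the Ctrl libraries, with a log2 fold change of -0.61 ± 0.52 (SE) that became 0.10 without Ctrl 2. It is also the member with most facing exon sequence, 51.5% of its exon bases. TRIM45 had 4.75 and 6.41 CPM in the knockdown libraries, against 6.69 and 7.90 CPM in the Ctrl libraries, a log2 fold change of -0.38 ± 0.24 (SE; adjusted p = 0.527 by edgeR). TRIM8, an activator of STAT3 and NF-kB signalling, was at 55.0 and 61.4 CPM in the knockdown libraries, inside the Ctrl values of 48.3 and 65.3 CPM, with a log2 fold change of 0.04 that became -0.00 with the stricter filter. The other members tested (TRIM2, TRIM15, TRIM26, TRIM27, TRIM32, TRIM35, TRIM36, TRIM39, TRIM46 and TRIM62) had log2 fold changes between -0.15 and 0.21, and none had an edgeR adjusted p below 0.754. TRIM39 shares 29.5% of its exon bases with the read-through gene TRIM39-RPP21, a row at 0 in every library. Its level, at the low end per kilobase, could therefore be understated.

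The choice of Ctrl library decided many of these values. With Ctrl 1 left out, edgeR called 7 members higher and 11 lower, and with Ctrl 2 left out, 14 higher and 4 lower, against 44.0% and 48.4% of all genes tested there in either direction. In each of these fits the knockdown pair alone sets the spread, and the lone Ctrl library is assumed to vary like it. TRIM5, TRIM6 and TRIM22 were called higher and TRIM7 lower in both fits, whereas TRIM11 and TRIM28 were called in opposite directions. TRIM11, a ligase that promotes protein clearance, had 31.2 and 31.1 CPM in the knockdown libraries, against 21.7 and 37.6 CPM in the Ctrl libraries. TRIM17, its neighbour and a brain-enriched ligase, had 6.91 and 6.83 CPM, against 5.25 and 10.5 CPM. In both genes the knockdown libraries almost coincided between Ctrl libraries far apart. With knockdown 1 or knockdown 2 left out, TRIM6 was the 1 member called, against 0.331% and 0.366% of all genes. The background was 6.54% with the replicate number as a block, where TRIM6 and TRIM29 were called higher and TRIM7 lower, 3.89% with no filter, where TRIM7 was also called lower, and 0.0462% with at least 5 CPM required in 2 libraries, where 0 members were called.

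The gap between the Ctrl libraries followed base composition. Across the 46 tested members, whose transcripts ran from 40.6% to 64.8% GC, the log2 ratio of Ctrl 2 to Ctrl 1 had a Spearman's rho of 0.85 with GC content, given as a description across genes that share libraries. It was 0.84 across 13218 tested genes. The log2 fold change of knockdown over Ctrl had a rho of -0.27 across the members and -0.0 across those 13218 genes. TRIM6, TRIM5 and TRIM22, at 44.8%, 45.9% and 44.3% GC, were among members lower in Ctrl 2 than in Ctrl 1, by -0.42, -0.29 and -0.23 on the log2 scale, and TRIM28, at 60.9%, among the higher. After subtraction of a trend with GC content from each library, 7 members were higher and 4 lower, against 33.9% of all genes tested there. The higher ones were TRIM5, TRIM6, TRIM13, TRIM22, TRIM24, TRIM29 and TRIM37, and the lower ones TRIM7, TRIM38, TRIM52 and TRIM66. TRIM6 had a log2 fold change of 2.15 there, TRIM5 0.56, TRIM22 0.46, TRIM7 -1.22 and TRIM28 0.02, which lie within 0.05 of the uncorrected values. With the replicate block added to that correction the background was 42.2%, and 10 members were higher and 7 lower. The part of GC content in the calls was not tested further.

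**Figure D4:**
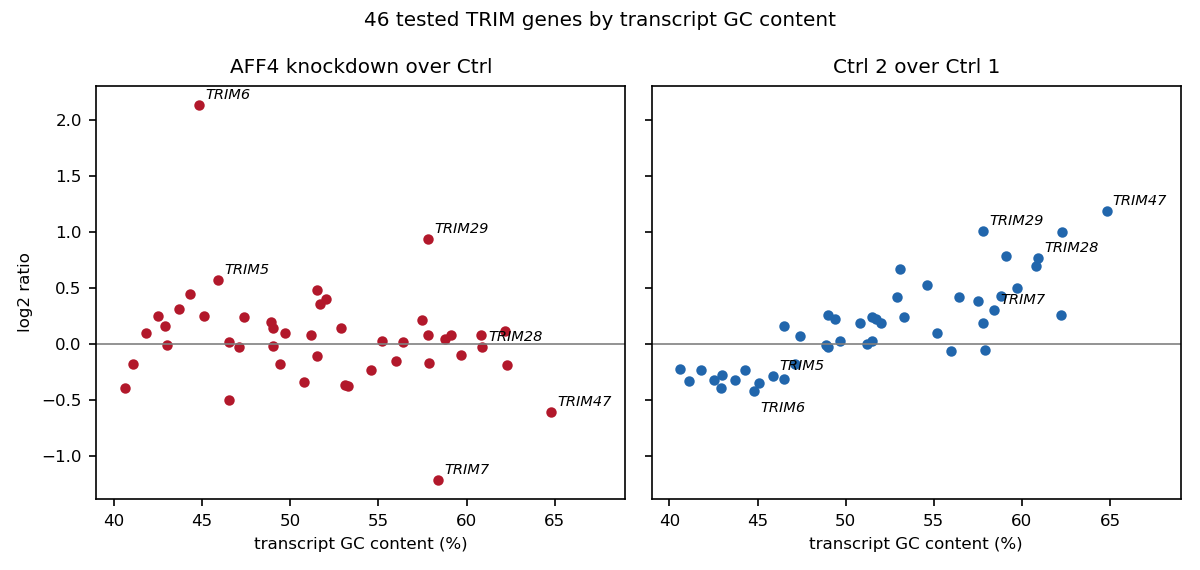
Log2 ratio against transcript GC content (%) for the 46 tested TRIM genes, 1 point per gene: AFF4 knockdown over Ctrl on the left and Ctrl 2 over Ctrl 1 on the right. The Ctrl ratio climbs with GC content (rho 0.85), whereas the knockdown ratio has a rho of -0.27, with TRIM6 and TRIM7 standing apart.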

How the data were processed

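The deposited values were whole-number read counts per gene symbol. The submitters' processing notes list fastp 0.13.1, HISAT2 2.1.0, featureCounts 1.6.1 and the build hg38. The annotation, strand setting and handling of multi-mapped reads are not stated there, and they bear on paralogs and overlapping genes. The table had 0 other value columns, and 9241 genes were at 0 in every library.

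Counts were fitted with edgeR 4.0.16 in R 4.3.3, with filterByExpr at its defaults (minimum count 10, minimum total 15), TMM scaling, group as the only term, and Benjamini-Hochberg adjustment over 13572 genes. A gene rose or fell only at an adjusted p under 0.05. SE is the absolute log2 fold change over the square root of F. TMM makes changes relative to other genes. Library totals were between 14903878 and 19129008 counts. The procedure was tested on simulated data, where it called 71.4% of 98 genes changed 2-fold, 99% of 99 changed 4-fold, and 8 unchanged genes. Those data had no trend with GC content between Ctrl libraries, so the gap seen here was not covered.

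Positions, exon lengths and transcript GC content came from GENCODE v29 (GRCh38, also called hg38), and promoters from RefSeq. Of the symbols, 2086 had no match, and 97.4% of tested genes had a GC value.

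The named members were AFF4, called members, those with unadjusted p under 0.05, the 5 largest rises and falls, the 10 most abundant, and members of role groups by level, plus up to 3 leading genes of each pathway list. 1 gene that this rule names is not reported here. TRIM11, TRIM17 and the neighbours of TRIM6 and TRIM7 were chosen after values were seen. The members and lists were chosen with earlier results of these data known. Alternatives were scaling by RLE, upper quartile or library size alone, other filters, DESeq2 1.42.0, limma-voom (limma 3.58.1), a replicate block, a GC correction (lowess span 0.4), an adjusted p under 0.01 and each library left out.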

Additional observations from a re-analysis of the deposited data

How the results depend on the processing

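With 2 libraries a group the calls depended on the filter and on the Ctrl pair, and 22 to 142 reads lie behind TRIM6. Calls of members were 0 higher with a filter of at least 5 CPM in 2 libraries, 0 higher at an adjusted p under 0.01, 1 lower with no filter, 7 higher and 4 lower after the GC correction, and 10 higher and 7 lower with the GC correction and the replicate block. With 1 library left out they ran from 1 to 14 higher and from 0 to 11 lower. The stricter filter gave AFF4 -2.10 (edgeR adjusted p = 0.0552) and TRIM6 2.11 (0.0573); the cause was not tested. The median of the members ran from -0.01 to 0.12.

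The labels number the replicates without saying what the number pairs. The replicate block called 2 members higher, TRIM6 and TRIM29, and 1 lower, TRIM7. Over 13572 genes the difference between replicates correlated by 0.285 between the groups, and 2 pairs are too few to treat as paired.

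Of the 46 tested members, 25 kept their sign in every one of the 14 alternatives in which they were tested. Reversals outside the leave-out fits were small: TRIM44 0.00 with upper quartile and 0.02 with library-size scaling, TRIM4 0.00 and TRIM32 0.01 with library-size scaling, TRIM41 -0.02, TRIM35 -0.00 and TRIM8 -0.00 with the stricter filter, TRIM2 -0.11 with limma-voom, -0.03 with the block and -0.04 with GC correction and block, and TRIM28 0.03 with limma-voom and 0.02 with the block, the GC correction or both. With each library left out, the log2 fold change ran from -0.36 to 0.41 for TRIM28, -1.15 to 0.10 for TRIM47, -0.76 to 0.58 for TRIM2, -0.61 to 0.39 for TRIM17, -0.27 to 0.52 for TRIM11, -0.47 to 0.06 for TRIM56, -0.33 to 0.17 for TRIM65, -0.33 to 0.01 for TRIM23, -0.26 to 0.06 for TRIM39, -0.24 to 0.46 for TRIM62, -0.18 to 0.33 for TRIM3, -0.18 to 0.24 for TRIM41, -0.17 to 0.27 for TRIM8, -0.14 to 0.14 for TRIM44, -0.12 to 0.07 for TRIM4, -0.11 to 0.10 for TRIM32, -0.05 to 0.36 for TRIM68, -0.04 to 0.29 for TRIM46, -0.02 to 0.37 for TRIM36, -0.01 to 0.23 for TRIM33 and -0.01 to 0.09 for TRIM35.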
